A study of Rattus norvegicus with 6 samples.

Results

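The collagens and the proteins that assemble, cross-link and decorate them form the fibrous matrix of a fracture callus. They were taken here as the probes whose annotated symbol belongs to the collagen chains, the lysyl oxidases, the prolyl and lysyl hydroxylases, the small leucine-rich proteoglycans, the elastic-fibre proteins or a set of matricellular proteins. This gave 78 probes of 57 symbols, out of 12589 named genes on the array, and every one of them had a value on all 6 pairings. Of the symbols, 43 had 1 probe and 14 had several, whose mean was used. Loxhd1, a protein of hair cell stereocilia, and Cert1 (annotated as Col4a3bp), a ceramide transporter, were matched by spelling only, which leaves 55 matrix genes, 26 of them collagen chains. Col1a1, Tnc and Thbs1 are not analysed here. Sprague-Dawley rats were started at 4 weeks of age on a liquid diet with ethanol or were pair-fed a diet without it for 4 weeks. Rats of either diet then had a pinned, closed mid-shaft fracture of the right hind-limb or no fracture, and tissue was taken after 3 days. The 4 groups were pair-fed fracture, pair-fed no fracture, alcohol-fed fracture and alcohol-fed no fracture, with 3 numbered samples each. Each pair of groups was hybridised on 2-colour arrays with a dye swap, so that 12 arrays gave 6 deposited log ratios per probe and each numbered sample served 1 pairing.

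Collagen chains fold into triple helices whose stability rests on hydroxylated prolines. The fibrillar types I, II, III, V and XI build the load-bearing fibrils, whereas type VI forms beaded filaments around cells, type IV the basement membrane and type VIII a network found around vessels and in remodelling tissue. In fracture repair a loose matrix rich in fibronectin and type III collagen precedes cartilage, whose hypertrophic cells make type X collagen, and type I collagen dominates in new bone. Since the tissue is a mixture, fewer cells of a type and less RNA per cell cannot be told apart in any value below.

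Ratios are called by what they compare. The pair-fed and the alcohol-fed pairing set fracture over no fracture within a diet, and the fractured and the unfractured pairing set pair-fed over alcohol-fed. The crossed pairing of pair-fed fracture sets that group over unfractured alcohol-fed rats, and the crossed pairing of alcohol-fed fracture sets unfractured pair-fed rats over that group. No source used here states the base of the log, and no folds are therefore quoted from these log-ratio units. The direction follows the order of names in each title, which neither labels nor data settle, and all signs would turn together if every ratio ran the other way. The fractured pairing and the crossed pairing of pair-fed fracture correlated at r = -0.616 over all probes and at r = -0.682 over the 57 member genes, although both set pair-fed fracture over an alcohol-fed group. For that reason the main results are also given with the sign of the column of the crossed pairing of pair-fed fracture, the doubted column, turned. Over all probes that column correlated at r = 0.258 with the pair-fed and 0.234 with the alcohol-fed pairing, the direction their shared groups give. With the unfractured pairing it was -0.273, the opposite direction. The fractured pairing was also at -0.216 with the pair-fed pairing, although both name pair-fed fracture first. Which column is at odds was not tested. A comparison of any 2 groups can be reached by 3 paths that share no array, namely the direct pairing and a detour through each of the other groups, and the fitted value weighs the direct pairing as much as both detours together. These paths show how far the arrays agree, and the ratios give no level, so whether a cell type's markers were present at all could not be read. Over the member genes the group differences left a median share of 0.413 of a gene's sum of squares unexplained, against 0.452 over all rows, and with the column turned 0.31 and 0.355. For each chain of types VI and VIII and for Col1a2 the share instead rose with the turn. It went from 0.159 to 0.375 for Col6a3, from 0.117 to 0.186 for Col8a1 and from 0.100 to 0.159 for Col1a2. For Thbs4 it fell from 0.125 to 0.045 and for Fbln1 from 0.081 to 0.028. The spread over probes ran from a standard deviation of 0.252 for the pair-fed pairing to 0.572 for the alcohol-fed pairing.

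**Figure D1:**
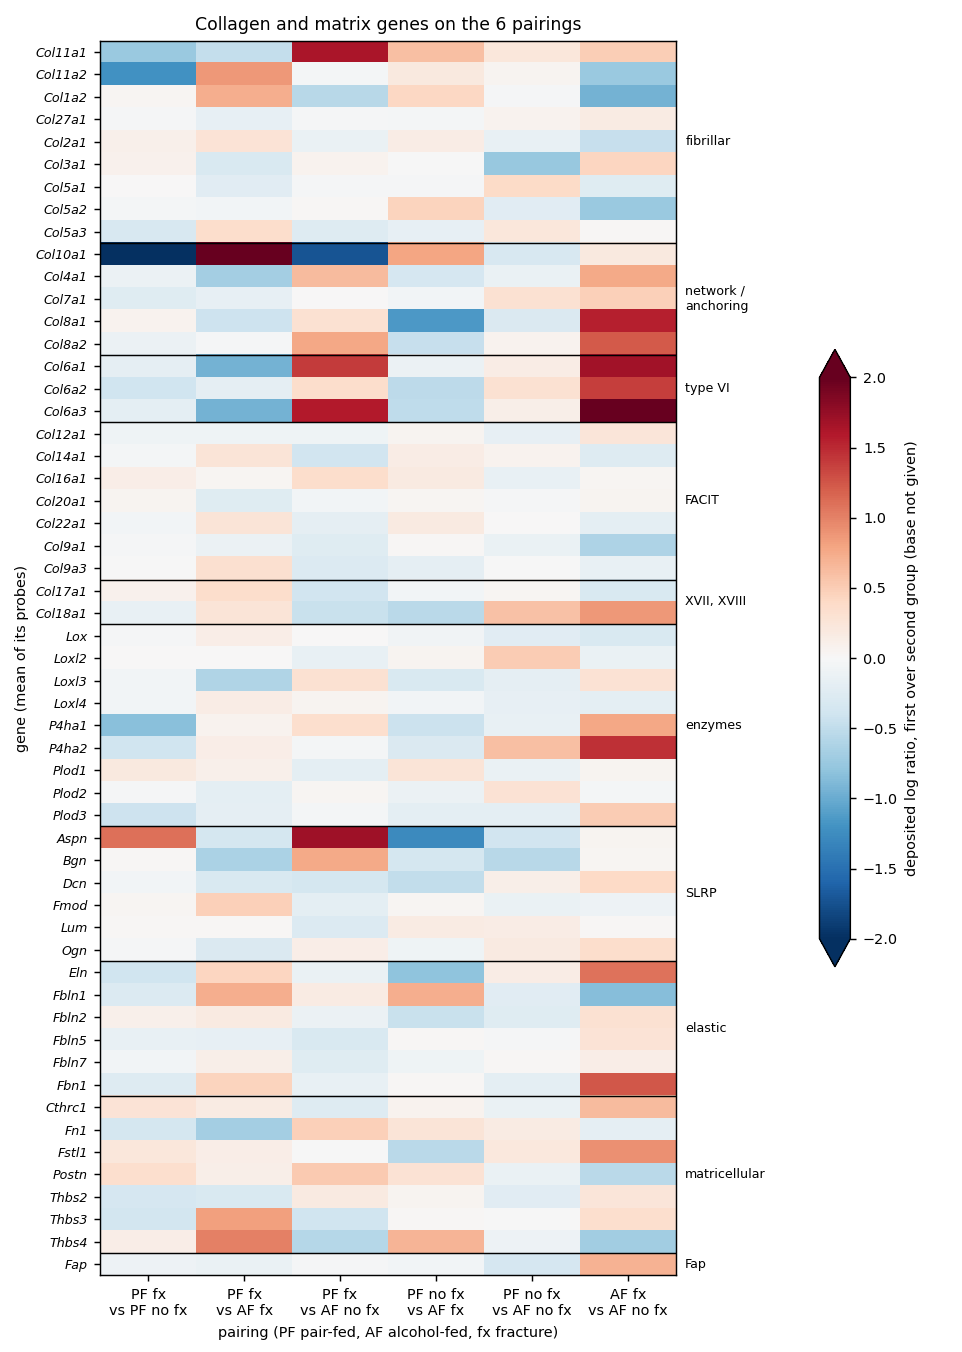
Deposited log ratios of the 55 matrix genes (rows, mean of a gene's probes, grouped by role) on the 6 pairings (columns), red where the first-named group was higher and blue where the second-named was. The colour scale ends at -2 and 2, which Col10a1 passes on the leftmost pairings with -2.56 and 4.86 and Col6a3 on the rightmost with 2.19. The 3 chains of type VI share their sign on every pairing.

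The non-fibrillar collagens of types VI and VIII had fitted values from 0.94 to 1.88 for fracture in alcohol-fed rats. On the titles' signs each of these 5 chains had all 3 paths above 0, and with the doubted column turned Col8a1 alone did. Col6a3, the longest chain of the beaded filaments, and Col8a1, a chain of the network-forming type VIII, rose past the threshold in this comparison, while Col1a2, the second chain of type I collagen, fell. These were the 3 member genes called of 57 (5.26%), beside 4.24% of all 23549 rows, so the share called was near the background. As positive, 2 of 57 were called (3.51%, against 0.828% of all rows), and as negative 1 of 57 (1.75%, against 3.41%).

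The promoters of these genes and of Col6a1 and Col10a1 are shown because their genes carry the results below, from RefSeq on the build GRCr8, 250 bases before to 50 after the annotated start. Capitals mark, on either strand, the TATA box as TATAAA, the CCAAT box by its 5 letters, the GC box as GGGCGG and the AP-1 type motif as TGANTCA, where N is any base. They lie at chr20:11905440-11905739 (+ strand), chr9:98886909-98887208 (- strand), chr11:56246532-56246831 (+ strand), chr4:33518307-33518606 (+ strand) and chr20:39737286-39737585 (+ strand).
Col6a1: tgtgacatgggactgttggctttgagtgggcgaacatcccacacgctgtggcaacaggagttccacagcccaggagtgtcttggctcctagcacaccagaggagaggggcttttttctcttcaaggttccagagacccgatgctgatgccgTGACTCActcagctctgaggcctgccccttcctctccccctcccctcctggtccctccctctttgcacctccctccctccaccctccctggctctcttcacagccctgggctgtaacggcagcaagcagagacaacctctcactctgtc
Col6a3: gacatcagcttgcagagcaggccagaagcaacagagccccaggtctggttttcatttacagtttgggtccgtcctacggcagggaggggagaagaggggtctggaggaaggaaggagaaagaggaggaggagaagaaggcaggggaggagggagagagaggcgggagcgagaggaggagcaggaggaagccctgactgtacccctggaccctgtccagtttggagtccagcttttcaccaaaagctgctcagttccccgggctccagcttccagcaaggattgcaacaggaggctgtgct
Col8a1: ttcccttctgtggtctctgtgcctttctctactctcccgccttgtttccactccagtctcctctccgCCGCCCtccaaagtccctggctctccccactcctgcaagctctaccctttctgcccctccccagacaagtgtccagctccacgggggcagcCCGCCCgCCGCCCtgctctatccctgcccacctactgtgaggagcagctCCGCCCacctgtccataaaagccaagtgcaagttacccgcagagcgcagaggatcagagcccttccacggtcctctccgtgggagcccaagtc
Col1a2: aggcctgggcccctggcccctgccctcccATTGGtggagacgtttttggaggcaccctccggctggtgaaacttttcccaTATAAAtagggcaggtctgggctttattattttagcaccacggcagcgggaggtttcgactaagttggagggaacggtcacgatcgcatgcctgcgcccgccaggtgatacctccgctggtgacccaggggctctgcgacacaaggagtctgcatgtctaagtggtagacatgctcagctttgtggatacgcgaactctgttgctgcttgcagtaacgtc
Col10a1: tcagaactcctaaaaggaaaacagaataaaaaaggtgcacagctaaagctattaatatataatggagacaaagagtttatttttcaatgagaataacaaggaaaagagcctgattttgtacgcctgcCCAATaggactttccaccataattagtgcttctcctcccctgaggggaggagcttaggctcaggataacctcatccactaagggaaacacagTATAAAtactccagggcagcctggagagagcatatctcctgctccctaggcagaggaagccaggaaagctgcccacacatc
Promoters were found for 41 of the 57 member genes. The GC box occurred in 25 of these 41 (61%) and in 34.9% of all 27457 promoters, and 4 times in that of Col8a1. The TATA box was in 5 member promoters (12.2%, against 14.3% of all), among them Col1a2 and Col10a1, which also hold the CCAAT box (12 members, 29.3%, against 37.7%). The TATAAA match began 31 bases before the annotated start in Col10a1 but 170 bases before it in Col1a2. The AP-1 type motif was in 1 member promoter, that of Col6a1 (2.44%, against 7.33%), and Col6a3 held none of the 4 motifs. None of the 4 motifs holds another, and a match describes letters only.

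The 3 chains of type VI collagen assemble with one another into the same molecule, and their ratios ran together. On the alcohol-fed pairing the deposited ratio was 1.68 for Col6a1, 1.38 for Col6a2 and 2.19 for Col6a3. On the crossed pairing of pair-fed fracture it was 1.40, 0.36 and 1.58, and on the unfractured pairing 0.14, 0.31 and 0.12. Alcohol-fed no fracture was thus the lower group on each of its pairings for all 3 chains. On the fractured pairing the ratios were -0.94, -0.17 and -0.94, on the crossed pairing of alcohol-fed fracture -0.11, -0.53 and -0.51, and on the pair-fed pairing -0.17, -0.39 and -0.20. Alcohol-fed fracture was therefore the higher group on each of its pairings. Across the 6 pairings, which share groups, Col6a1 and Col6a3 correlated at r = 0.986, a value reached by 0.0467% of all rows with Col6a1, and Col4a1, a basement membrane chain, was as close to both (0.989 and 0.988). Col6a2 was less like them, at 0.806 with Col6a1 (reached by 6.69% of all rows) and 0.874 with Col6a3 (3.34%).

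**Figure D2:**
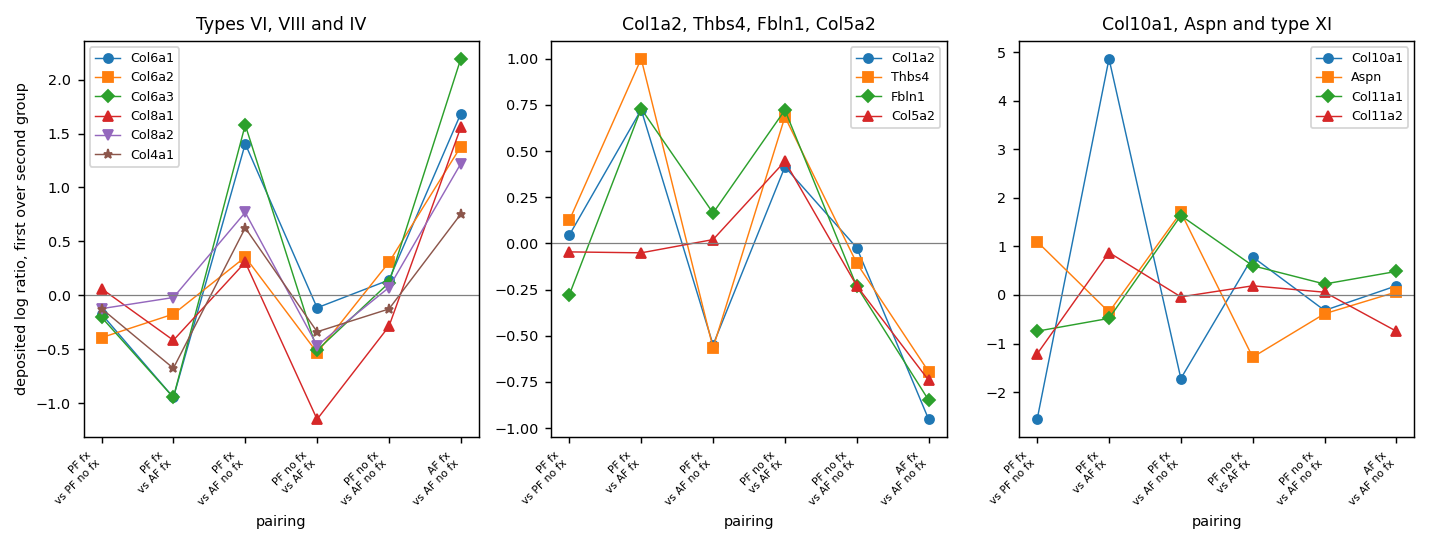
Deposited log ratio (vertical axis) on each of the 6 pairings (horizontal axis, PF pair-fed, AF alcohol-fed, fx fracture) for chains of types VI, VIII and IV (left), for Col1a2, Thbs4, Fbln1 and Col5a2 (middle) and for Col10a1, Aspn and the type XI chains (right). Lines only guide the eye, since pairings have no order. The left genes peak on the alcohol-fed pairing, where the middle genes are lowest, and Col10a1 reaches 4.86 on the fractured pairing.

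The fitted fracture effect in alcohol-fed rats was 1.88 ± 0.35 (SE) for Col6a3 (limma adjusted p = 0.0394). Its 3 paths were 2.19 directly, 2.52 through pair-fed fracture and 0.62 through pair-fed no fracture. Col6a1 was at 1.49 ± 0.33 (limma adjusted p = 0.0629) and Col6a2 at 1.03 ± 0.23 (limma adjusted p = 0.0603), neither past the threshold, with paths from 0.26 to 2.35 and from 0.53 to 1.38. Turning the column of the crossed pairing of pair-fed fracture brought Col6a3 to 1.09 ± 0.50 (limma adjusted p = 0.314), Col6a1 to 0.79 ± 0.43 and Col6a2 to 0.85 ± 0.28, and put the path through pair-fed fracture below 0 for each. Skeletal muscle markers had a median of 1.59 in the same comparison (13 measured, 11 positive), and their part in the type VI values was not tested. Leaving out 1 pairing at a time kept Col6a3 between 1.58 and 2.29, past the threshold in 2 of 6 such fits.

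Col8a1 and Col8a2, the chains of type VIII collagen, had like profiles, with r = 0.928 over the pairings, a value reached by 2.09% of all rows with Col8a1. Cert1, matched by spelling only, was nearly as close to Col8a1 (0.924), as was Fstl1 (0.913). Col8a1 had ratios of 1.56 on the alcohol-fed pairing, -1.15 on the crossed pairing of alcohol-fed fracture, -0.42 on the fractured pairing, 0.31 on the crossed pairing of pair-fed fracture, -0.29 on the unfractured pairing and 0.06 on the pair-fed pairing. It was high in alcohol-fed fracture on all 3 pairings of that group. The fitted fracture effect in alcohol-fed rats was 1.17 ± 0.23 (limma adjusted p = 0.0459), from paths of 1.56, 0.72 and 0.86. On the turned reading Col8a1 stayed at 1.02 ± 0.27 with all 3 paths above 0, but missed the threshold (limma adjusted p = 0.148). Col8a2 was at 0.94 ± 0.22 (limma adjusted p = 0.0714) and, with the column turned, at 0.56 ± 0.33, where its path through pair-fed fracture was -0.75. Of the other network and anchoring chains, Col4a1 was at 0.75 ± 0.21 and Col7a1, which anchors epithelia, at 0.37 ± 0.14, both short of the threshold.

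The fibrillar collagens had lower values than the beaded ones, and 1 of the 9 passed the threshold. Col1a2 had ratios of -0.95 on the alcohol-fed pairing, 0.72 on the fractured pairing, 0.42 on the crossed pairing of alcohol-fed fracture, -0.55 on the crossed pairing of pair-fed fracture, -0.02 on the unfractured pairing and 0.05 on the pair-fed pairing. It was low in alcohol-fed fracture on all 3 pairings of that group. The fit gave -0.90 ± 0.18 (limma adjusted p = 0.0466), from paths of -0.95, -1.27 and -0.44, and with the column turned -0.63 ± 0.20 (limma adjusted p = 0.192) with all paths still below 0. Col5a2, a chain that nucleates type I fibrils, was at -0.52 ± 0.19, and Col5a1, its partner chain, was at 0.03 ± 0.18. Col3a1, prominent in early callus, was at 0.11 ± 0.24, with paths of 0.43, 0.36 and -0.76 that do not agree in sign. Over the 9 fibrillar genes 4 were positive, with a median of -0.05, whereas the 3 type VI chains had a median of 1.49 and all rows one of 0.02.

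Thbs4, a thrombospondin of tendon and muscle matrix, and Fbln1, a fibulin that binds fibronectin and elastic fibres, were negative on all 3 paths for fracture in alcohol-fed rats. Fbln1 had ratios of -0.85 on the alcohol-fed pairing, 0.73 on the fractured pairing and 0.72 on the crossed pairing of alcohol-fed fracture, with -0.28, 0.16 and -0.23 on the pairings without that group. Its fitted fracture effect in alcohol-fed rats was -0.80 ± 0.17 (limma adjusted p = 0.0573), from paths of -0.85, -0.56 and -0.96, and -0.89 ± 0.14 with the column turned (limma adjusted p = 0.0712). Thbs4 was at -0.94 ± 0.20 (limma adjusted p = 0.0552), from paths of -0.69, -1.57 and -0.79, and at -0.65 ± 0.15 with the column turned. Neither passed the threshold in this comparison.

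Over the whole set, 36 of 57 member genes were positive in this comparison, with a median of 0.09. Of all 23549 rows 12484 were positive, with a median of 0.02. An unadjusted p under 0.05 was reached by 15 member genes (26.3%, against 18.9% of all rows), 10 positive (17.5%, against 8.17%) and 5 negative (8.77%, against 10.8%). The 10 positive ones were the 3 chains of type VI, both of type VIII, Col4a1, Col7a1, P4ha2, Fstl1 and Ogn, and the 5 negative ones Col1a2, Col2a1, Col5a2, Fbln1 and Thbs4. Paths of 1 sign were found for 24 member genes (42.1%, against 34.5%). On the turned reading limma called 0 member genes (0% of all rows), 14 had an unadjusted p under 0.05 (24.6%, against 17.8%) and 20 had paths of 1 sign (35.1%, against 36.9%).

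**Figure D3:**
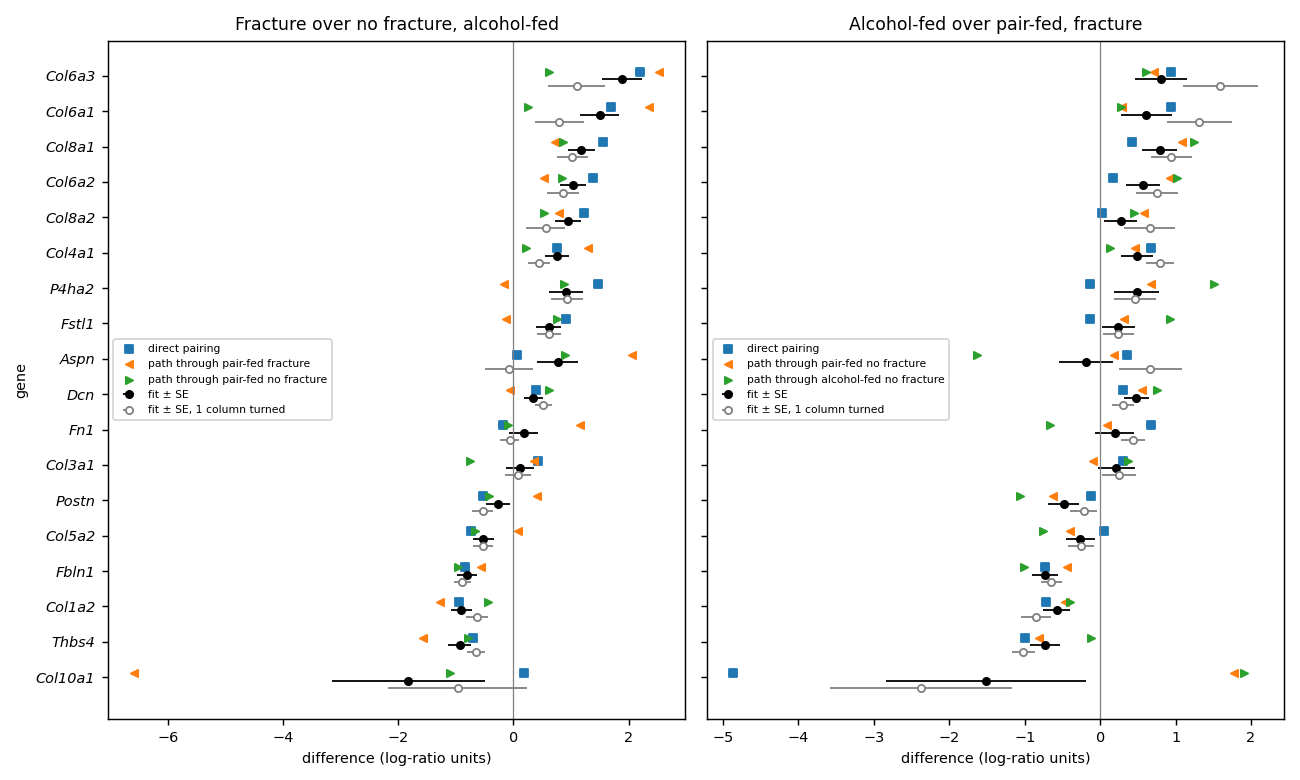
Difference in log-ratio units (horizontal axis) for 18 member genes (vertical axis), as fracture over no fracture in alcohol-fed rats (left) and as alcohol-fed over pair-fed in fractured rats (right). Coloured symbols are the 3 paths that share no array, black points the fit ± SE and open points the fit ± SE with 1 column turned. The fits of Col6a3, Col6a1 and Col8a1 lie above 0 and those of Fbln1, Col1a2 and Thbs4 below 0 in both panels, and the paths of Col10a1 scatter from -6.58 to 0.19 on the left.

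The series set out to compare alcohol-fed with pair-fed rats after fracture, and here the type VI chains and Col8a1 had the 4 highest fitted values on the titles' signs. This comparison shares the alcohol-fed fracture samples with the one above, so the values are not independent of it. Limma called 0 of 57 member genes (0% of all rows), and 6 had an unadjusted p under 0.05 (10.5%, against 11.5%). Col8a1 was at 0.79 ± 0.23, from paths of 0.42, 1.08 and 1.25, Col6a3 at 0.80 ± 0.35, Col6a1 at 0.61 ± 0.33 and Col6a2 at 0.57 ± 0.23. Each of the 3 type VI chains and Col8a1 had all 3 paths above 0. On the negative side Thbs4 was at -0.73 ± 0.20, Fbln1 at -0.73 ± 0.17 and Col1a2 at -0.58 ± 0.18, with all paths below 0. Paths of 1 sign occurred in 23 member genes (40.4%, against 34.5%), 16 of them positive (28.1%, against 16.8%).

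With the column turned, Fbln1 was smaller in size at -0.65 ± 0.14, and the others named were larger. Thbs4 then passed as negative at -1.02 ± 0.15 (limma adjusted p = 0.0356), the single member called of 57 (1.75%, against 1.85% of all rows in either direction and 1.5% as negative). Col11a1 at 0.81 ± 0.32 and Col4a1 at 0.80 ± 0.18 then lay above Col6a2 at 0.75 ± 0.28. Col6a3 was at 1.59 ± 0.50, Col6a1 at 1.32 ± 0.43 and Col1a2 at -0.85 ± 0.20, with limma adjusted p between 0.08 and 0.159. On this reading 34 member genes had paths of 1 sign (59.6%, against 42.2%), 21 of them positive (36.8%, against 19.4%), and 13 had an unadjusted p under 0.05 (22.8%, against 20.3%). In both comparisons the signs of the type VI chains, Col8a1, Col1a2, Thbs4 and Fbln1 were the same on both readings, while sizes and calls were not.

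In pair-fed rats 25 of 57 member genes were positive with fracture, with a median of -0.04, and 30 of 57 with a median of 0.02 on the turned reading. Of all 23549 rows 10812 were positive on the titles' signs and 11764 on the turned reading. Limma called 0 of 57 (0% of all rows), and 1 member had an unadjusted p under 0.05 (1.75%, against 1.9%). That member was Aspn, asporin, a proteoglycan of the decorin family that binds collagen. Its ratios were 1.10 on the pair-fed pairing, 1.70 on the crossed pairing of pair-fed fracture, -1.28 on the crossed pairing of alcohol-fed fracture and 0.06 on the alcohol-fed pairing. The fractured group was higher on each of these 4 pairings, although barely on the last. On the fractured pairing Aspn was at -0.35 and on the unfractured pairing at -0.39. The fitted effect was 1.30 ± 0.35 in pair-fed rats, with a limma adjusted p of 1, and with the column turned 0.45 ± 0.42. On that reading 2 other members had an unadjusted p under 0.05 (3.51%, against 2.88%), Col11a1 at -1.11 ± 0.32 and Fn1 at -0.57 ± 0.16.

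The other small leucine-rich proteoglycans followed Aspn only in part. Bgn, biglycan, had 0.02, 0.76, -0.35 and 0.04 on the same 4 pairings, and its fitted value of 0.27 ± 0.30 in pair-fed rats became -0.11 ± 0.14 with the column turned. Dcn, decorin, had -0.06, -0.35, -0.50 and 0.40. On the titles' signs it was lower with fracture where the fractured group was pair-fed and higher where it was alcohol-fed. For alcohol-fed over pair-fed in fractured rats Dcn was at 0.48 ± 0.17 (limma adjusted p = 0.343, unadjusted p = 0.0252), and at 0.30 ± 0.14 with the column turned. For fracture in alcohol-fed rats it was at 0.34 ± 0.17, and at 0.52 ± 0.14 with the column turned. Lum was at -0.07 ± 0.16, Fmod at -0.26 ± 0.16 and Ogn, which passed an unadjusted p of 0.05 only, at 0.35 ± 0.14 in alcohol-fed rats, and the median of all 6 proteoglycans was 0.02 in pair-fed and 0.33 in alcohol-fed rats. On the turned reading these medians were 0.04 and 0.0019. The gap between the diets, taken gene by gene, does not involve the doubted column, and its median was 0.053 on both readings. Over all members, 8 had 1 sign on all 4 pairings that set a fractured beside an unfractured group (14%, against 19.7% of all rows). Aspn, Bgn, Col3a1 and Col8a1 were higher with fracture on all of them (7.02%, against 9.53%) and Col9a1, Col11a2, Col14a1 and Col22a1 lower (7.02%, against 10.2%). On the turned reading there were 5 (8.77%, against 11.8%). None of them could be among the 8, because the turned column is 1 of the 4 pairings.

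In the average over both diets limma called 0 members (0% of all rows) and 11 had an unadjusted p under 0.05 (19.3%, against 13.6%). Aspn at 1.03 ± 0.25, Col6a3 at 1.02 ± 0.24, Col8a1 at 0.77 ± 0.16 and Col6a1 at 0.76 ± 0.24 were highest, and Col10a1 at -1.22 ± 0.94, Col11a2 at -0.55 ± 0.24, Col1a2 at -0.47 ± 0.13 and Thbs4 at -0.46 ± 0.14 lowest. On the turned reading Aspn was at 0.19 ± 0.29, Col6a3 at 0.23 ± 0.35, Col6a1 at 0.06 ± 0.30 and Col8a1 at 0.62 ± 0.19. The lowest were then Col11a1 at -0.62 ± 0.23, Col11a2 at -0.53 ± 0.24, Fbln1 at -0.50 ± 0.10 and Col10a1 at -0.36 ± 0.85, while Col1a2 was at -0.19 ± 0.14 and Thbs4 at -0.17 ± 0.11, and 8 members had an unadjusted p under 0.05 (14%, against 8.34%).

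Without fracture, alcohol-fed rats had lower fitted values of the type VI chains. Col6a3 was at -0.92 ± 0.35, Col6a1 at -0.86 ± 0.33 and Col6a2 at -0.55 ± 0.23, the 3 members with an unadjusted p under 0.05 (5.26%, against 3.48% of all rows), and limma called 0 (0% of all rows). The direct pairing contributed little for Col6a3 and Col6a1, with 0.12 and 0.14 as pair-fed over alcohol-fed, and more for Col6a2, with 0.31. With the doubted column turned, Col6a3 was at -0.13 ± 0.50, Col6a1 at -0.16 ± 0.43 and Col6a2 at -0.37 ± 0.28. The size thus rested largely on that column for Col6a3 and Col6a1 and less so for Col6a2. On the turned reading 4 other members (Aspn, Bgn, Col18a1, P4ha2) had an unadjusted p under 0.05 (7.02%, against 6.72%). Col11a1 at -0.98 ± 0.41 and P4ha2 at -0.68 ± 0.30 were the other low members, and Aspn at 0.35, Col1a2 at 0.29 ± 0.18, Col3a1 at 0.28 ± 0.24 and Col9a1 at 0.26 ± 0.16 the highest. Both ends changed in part on the turned reading, with Col11a1 at -0.16 ± 0.32, Aspn at 1.20 ± 0.42, Bgn at 0.55 ± 0.14 and Col1a2 at 0.02 ± 0.20. P4ha2 at -0.71 ± 0.28 and Col3a1 at 0.31 ± 0.23 stayed close to their values on the titles' signs.

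The interaction asks whether fracture and no fracture differ more in alcohol-fed than in pair-fed rats. Its fitted value does not involve the column of the crossed pairing of pair-fed fracture, so it is the same on both readings and only its SE changes. Col6a3 was at 1.73 ± 0.49, Col6a1 at 1.47 ± 0.47, P4ha2 at 1.17 ± 0.42 and Col6a2 at 1.13 ± 0.32, while Thbs4 was at -0.96 ± 0.28, Col1a2 at -0.87 ± 0.26 and Fbln1 at -0.77 ± 0.25. Limma called 0 of 57 members (0% of all rows), with adjusted p from 0.261 to 0.385 for these 7 genes. An unadjusted p under 0.05 was reached by 10 members (17.5%, against 10.6%), and on the turned reading by 10 as well (17.5%, against 12%). A larger response of any member on 1 diet was thus not established by this test.

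Col10a1, the collagen of hypertrophic cartilage, had the highest and the lowest deposited ratio of the set. Its single probe read 4.86 on the fractured pairing, the highest of 23549 rows on that pairing, and -2.56 on the pair-fed pairing, the lowest on that one. The ratio was -1.72 on the crossed pairing of pair-fed fracture, 0.78 on the crossed pairing of alcohol-fed fracture, -0.32 on the unfractured pairing and 0.19 on the alcohol-fed pairing. Pair-fed fracture was thus far above one group and far below the others. For alcohol-fed over pair-fed in fractured rats, the direct path was -4.86, while the path through pair-fed no fracture was 1.78 and that through alcohol-fed no fracture 1.91. The fit of -1.51 ± 1.33 therefore averaged values of opposite sign, and without the direct pairing it was 1.84 ± 0.39 (limma adjusted p = 0.232). The residual standard deviation of 2.78 was the largest among members, whose median was 0.264.

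The type XI chains, minor fibrillar chains of cartilage, also differed between paths. Col11a1 had 1.63 on the crossed pairing of pair-fed fracture but 0.49 on the alcohol-fed pairing and -0.75 on the pair-fed pairing. Col11a2 had -1.21 on the pair-fed pairing and -0.75 on the alcohol-fed pairing, and its fitted fracture effects were -0.46 ± 0.34 in pair-fed and -0.63 ± 0.34 in alcohol-fed rats.

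Several matrix genes were read by more than 1 probe, and the probes often differed. For fracture in alcohol-fed rats the probes of 8 of the 14 such genes had both signs. Col2a1, the main cartilage collagen, had probes at 0.69 ± 0.29, -1.06 ± 0.16 and -0.85 ± 0.24. Col14a1, which binds fibril surfaces, had 5 of its 6 probes between -0.41 and 0.19 and the other at -1.50 ± 0.22. Col17a1, a transmembrane collagen of epithelia, had 0.44 ± 0.18 and -1.08 ± 0.21, and Fn1, fibronectin, 0.70 ± 0.48 and -0.35 ± 0.18. Col4a1 had 1.10 ± 0.18 and 0.41 ± 0.33, and the 2 probes of P4ha1 agreed at 0.50 and 0.54. Fitted with 1 row per probe, limma called 7 of 78 member probes (those of Col4a1, Col6a3 and Col8a1 as positive and single probes of Col1a2, Col2a1, Col14a1 and Col17a1 as negative). These were 3.85% positive, against 0.91% of all 26481 probes, and 5.13% negative, against 3.71%, or 8.97% against 4.62% in either direction. The calls of Col2a1, Col14a1, Col17a1 and Col4a1 are thus calls of 1 probe and not of the gene. Col6a3, Col8a1 and Col1a2 had 1 probe each, so their calls could not be set beside a further probe of the gene.

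**Figure D4:**
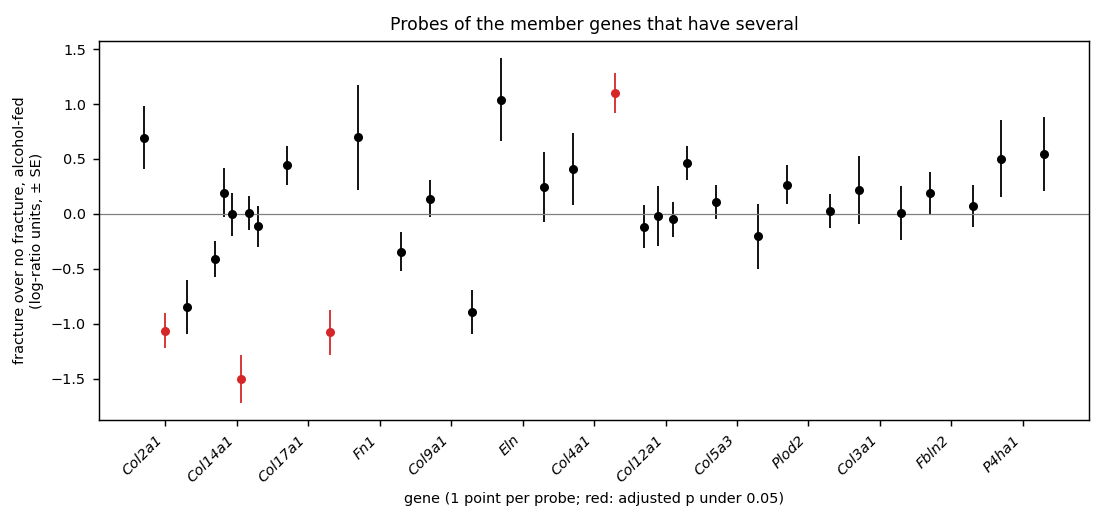
Fitted difference of fracture over no fracture in alcohol-fed rats (vertical axis, log-ratio units, ± SE) for each probe of the 13 matrix genes that have several (horizontal axis, ordered by the spread between their probes), red where the adjusted p was under 0.05. The probes of Col2a1 run from -1.06 to 0.69 and those of Col14a1 from -1.50 to 0.19, while those of P4ha1 differ by 0.04.

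The 9 enzymes that modify and cross-link collagen had a median of 0.14 for fracture in alcohol-fed rats. P4ha2, a catalytic subunit of prolyl 4-hydroxylase, was at 0.91 ± 0.30, from paths of 1.47, -0.17 and 0.88, and P4ha1 at 0.52 ± 0.31. Lox, the enzyme that starts cross-linking, was at -0.22 ± 0.15, Plod2, which hydroxylates telopeptide lysines, had ratios between -0.20 and 0.28 on all pairings, and Loxl3 was at 0.40 ± 0.18. None of the 9 enzymes passed. Among elastic-fibre proteins, Fbn1, fibrillin-1, had 1.24 on the direct pairing but -0.59 and -0.22 on the other paths, and Eln, elastin, 1.08, -0.55 and 0.96.

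Of the matricellular genes, Fstl1 was at 0.61 ± 0.22 in alcohol-fed rats on either reading. Postn, periostin, which marks the periosteal response, was at -0.27 ± 0.20 with fracture in alcohol-fed and at 0.29 ± 0.20 in pair-fed rats. Fn1 was at 0.17 ± 0.26 and -0.33 ± 0.26. With the column turned, Postn was at -0.54 ± 0.18 and 0.03 ± 0.18 and Fn1 at -0.06 ± 0.16 and -0.57 ± 0.16, so the opposite signs between diets did not hold for Fn1 and were near 0 on the pair-fed side for Postn. Cthrc1 had 0.63 and Fap, a protease of activated fibroblasts, 0.70 on the alcohol-fed pairing, with ratios between -0.34 and 0.27 on the other pairings for both. Thbs2 stayed between -0.34 and 0.24. None of these passed. The early callus genes Fn1, Col3a1 and Postn had no call in any comparison, which says little about them. On the titles' signs only fracture in alcohol-fed rats had calls at all (4.24% of all rows). On the turned reading only alcohol in fractured rats had any (1.85%).

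Genes that fold and process collagen, outside the set, were followed from a list of 29, of which 21 were measured. In alcohol-fed rats 13 of 21 were positive with fracture and none passed, with a median of 0.13. On the turned reading 12 of 21 were positive, with a median of 0.15, and none passed. Serpinh1, the collagen chaperone, was at 1.35 ± 0.31 (limma adjusted p = 0.0685) on the titles' signs. It had ratios of 1.71 on the direct pairing, 0.84 on the crossed pairing of pair-fed fracture and -0.65 on the fractured pairing. On the pair-fed pairing it was at -0.90, on the crossed pairing of alcohol-fed fracture at -0.29 and on the unfractured pairing at 0.20. Pcolce, an enhancer of procollagen cleavage, was at 1.05 ± 0.25 (limma adjusted p = 0.0748). In pair-fed rats the list had 10 of 21 positive and a median of -0.05.

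Markers of other cells moved in the same comparison. Of 13 measured skeletal muscle markers 11 were positive with fracture in alcohol-fed rats, with a median of 1.59 and a range from -1.18 for Eno3 to 2.08 for Tnni2, and 4 passed as positive and 1 as negative. Their median was 1.14 on the turned reading, and in fractured rats it was 1.07 for alcohol-fed over pair-fed. Of 9 fibroblast and mesenchymal markers 6 were positive, with a median of 0.45, and the contractile gene Tagln passed at 1.65 ± 0.26. Vim, the intermediate filament of mesenchymal cells, was at 1.89 ± 0.40 (limma adjusted p = 0.0537). Osteoblast markers had a median of -0.08 over 10 genes, and of 5 chondrocyte markers 1 was positive, with Matn1 past the threshold at -1.19 ± 0.16. Of 6 macrophage markers 4 were positive, with a median of 0.23, and Cd14 and Lyz2 passed as positive. Of 10 erythroid markers 4 passed as negative, with a median of -0.36, and 4 B lymphocyte markers had a median of -0.71 and none passed. On the turned reading none of these lists had a call for fracture in alcohol-fed rats. There 3 of 5 chondrocyte markers were positive, with a median of 0.13 in place of -0.30. The fibroblast median was then 0.21 and the erythroid median -0.85. For alcohol-fed over pair-fed in fractured rats the turned reading called 3 of 10 erythroid, 2 of 13 muscle, 1 of 4 B lymphocyte and 1 of 5 chondrocyte markers. Of all rows 1.85% were called there, and the muscle median was 1.54. The part of these cells in the values of the collagens was not tested.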

How the data were processed

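Gene expression was measured in rat hind-limb tissue on 2-colour oligonucleotide arrays. The authors deposited log ratios, 1 for each probe on each pairing, whose base, numerator, scanner, background correction and normalization no source used here states. Each deposited column has a mean of 0, and how the dye-swap arrays of a pairing were combined is not stated. Spot signals were not used here and dim probes were therefore kept. The number of arrays limits the precision. Whether numbered samples are separate rats is unstated, and p-values then cover only the spread among them, which may be technical.

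From 26503 probes, 22 control spots were left out and 26481 tested. Symbols came from the platform annotation (15521 probes), updated through current rat symbols, and the probes of a gene were averaged, giving 23549 rows. A linear model over all 6 pairings (limma 3.58.1, R 4.3.3) gave +1 to the first-named and -1 to the second-named group, with 3 residual and 3.66 prior degrees of freedom. Two-sided p-values were adjusted by Benjamini-Hochberg over every row, and calls were made at 0.05. The model was tested on simulated data. Members, lists and tests were chosen with earlier results of these data known. The rule for named genes took, per comparison, members past the threshold and the 4 highest and 4 lowest, plus a fixed set of well-known matrix genes. Genes given beyond it for their role were chosen after their values were seen, as were the path comparison, the promoters and their motifs. Alternatives were the turned column, scaling, median centring, other variance estimates, 1 row per probe, named genes only and leaving out each pairing.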

Additional observations from a re-analysis of the deposited data

How the results depend on the processing

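The count of 3 member genes called for fracture in alcohol-fed rats became 0 with the column of the crossed pairing of pair-fed fracture turned, 0 with columns scaled to 1 spread, 0 with ordinary variances and 7 with 1 row per probe. It stayed within 1.5 times 3 with median centring, robust variances and named genes only. Leaving out 1 pairing gave 0 to 4. It was 0 without the pair-fed pairing, without the alcohol-fed pairing or without the crossed pairing of pair-fed fracture, and 1 without the crossed pairing of alcohol-fed fracture. Over all rows the 999 calls became 0 with the turned column, 469 with scaling, 2 with ordinary variances, 568 with named genes only and 0 to 918 without 1 pairing. For alcohol in fractured rats the turned column gave 1 call. Members with 1 sign on all 4 fracture pairings went from 8 to 5 with it. The other counts of calls stayed at 0 in every setting run. For the 48 named results, 587 of 627 recomputed values kept direction and side of the threshold, 23 lost a call, 4 gained one and 13 changed sign. All 23 lost calls were of Col6a3, Col8a1 or Col1a2, since the other named results had no call to lose. Without 1 pairing the call was kept in 2 of 6 fits for Col6a3 and in 1 of 6 each for Col8a1 and Col1a2. The turned column changed the sign of the pair-fed fracture effect of Bgn (-0.11) and Col10a1 (0.25), scaling that of the interaction of Col10a1 (0.070), and 1 probe of Col9a1 that of alcohol without fracture (-0.018). Leaving out 1 pairing moved Col10a1 from -2.29 to 1.34 for fracture in pair-fed rats, from -2.52 to 1.84 for alcohol in fractured rats and from -3.23 to 2.14 for the interaction. In pair-fed fracture it moved Bgn from -0.063 to 0.52, Col11a2 from -0.77 to 0.29 and Col11a1 from -0.76 to 0.16. In unfractured alcohol it moved Col3a1 from -0.20 to 0.48 and Aspn from -0.0059 to 0.72. The cause was not tested. No paired analysis was possible because each pairing holds 1 deposited column. Without signal intensities, how far dim probes limit these values is unknown.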

Other observations

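Some members were high on 1 pairing and near 0 on another that holds the same unfractured group. Fbn1 at 1.24, P4ha2 at 1.47 and Eln at 1.08 were high on the alcohol-fed pairing, while their ratios on the crossed pairing of pair-fed fracture were -0.14, -0.04 and -0.13. Thbs3, a thrombospondin of bone and cartilage, had 0.82 on the fractured pairing and resembled Col10a1 across the 6 pairings (r = 0.941, reached by 0.429% of all rows). Their signs were the same on every pairing. How far r rests on the 4.86 of Col10a1 on the fractured pairing was not tested. The group differences left a share of 0.908 of the sum of squares of Thbs3 unexplained. The FACIT collagens, which sit on fibril surfaces, had 7 gene values from -0.38 for Col9a1 to 0.07 for Col12a1 for fracture in alcohol-fed rats. Loxhd1 and Cert1, which match the set by spelling alone, had fitted values of -0.07 and 0.09 in that comparison.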
